A study of Mus musculus with 14 samples.

Results

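Nr4a1, Egr1, Egr2, Egr3 and Ier3 are immediate early genes, which cells switch on within minutes of a growth or stress signal. They were described here in mammary tumours of mice whose mothers had eaten genistein, a soy isoflavone. The 5 genes were chosen by symbol after an earlier look at these data had shown all of them lower in RNA, so their RNA values are a description and were not tested again. They are 5 of the 1324 genes in the authors' deposited table of RNA differences. Of 139 differentially methylated regions the authors list, 2 carry the name of a chosen gene. None of the 4327 listed CpG sites, and none of the 589 listed gene and CpG pairs, does (0 in both tables).

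The tumours came from FVB mice carrying the SV40 Tag transgene, at an age of about 25 weeks. The Maternal LT-GE group had dams on a diet with 250 mg/kg genistein, started when the dams were 4 weeks old and stopped at weaning. The Control group had dams on control diet, and offspring of both groups ate control diet. RNA was sequenced, and so was bisulfite-treated DNA by RRBS, a method that measures CpG methylation in a CpG-rich subset of the genome. Each assay had 4 Maternal LT-GE and 3 Control libraries. The labels do not name the promoter that drives the transgene, and they do not say which libraries share a litter or whether RNA and RRBS libraries of one number share a tumour. The p-values therefore measure only the spread between these samples. RNA values of single libraries were not used here. A positive fold change is read as higher in Maternal LT-GE tumours. No column name of the RNA table says so. The basis is that chromosomes with a larger share of positive genes had more RRBS reads in Maternal LT-GE libraries (Pearson's r = 0.906 and Spearman's rho = 0.929 over 20 chromosomes, and r = 0.88 over the 15 chromosomes that carry none of the 5 genes). The opposite reading would turn the sign of every RNA statement.

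Immediate early genes need no new protein for their induction, because the factors that switch them on already sit in the cell. Growth factor receptors signal through RAS, RAF, MEK and ERK kinases to ETS-family factors that sit with serum response factor on CArG boxes, and cyclic AMP and calcium signals act through CREB on cyclic AMP response elements. Nr4a1 encodes an orphan nuclear receptor (Nur77), Egr1, Egr2 and Egr3 encode zinc-finger transcription factors that bind GC-rich sites, and Ier3 (also IEX-1) encodes a small stress-induced protein linked to cell survival and ERK signalling. Their RNAs are short-lived, so their levels follow recent signalling.

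Promoter windows of 300 bases (250 before and 50 after the start, RefSeq, build GRCm38.p6) were in hand for 3 of the 5 genes, Nr4a1, Egr2 and Ier3. The windows are shown as background, because immediate early signals act through elements of this kind. The genes were chosen as lower in RNA, and the part of these elements in the RNA folds was not tested. Capitals mark matches, on either strand, to a CArG box, to the cyclic AMP response element core TGACG, to TGANTCA (AP-1) or to the ETS-type site CCGGAA. The Nr4a1 window is chr15:101266596-101266895, the Egr2 window chr10:67537619-67537918, around the gene start that the authors' distances use, and the Ier3 window chr17:35821463-35821762, all on the plus strand. The Nr4a1 start lies inside the gene's annotated span, which begins farther upstream.
Nr4a1: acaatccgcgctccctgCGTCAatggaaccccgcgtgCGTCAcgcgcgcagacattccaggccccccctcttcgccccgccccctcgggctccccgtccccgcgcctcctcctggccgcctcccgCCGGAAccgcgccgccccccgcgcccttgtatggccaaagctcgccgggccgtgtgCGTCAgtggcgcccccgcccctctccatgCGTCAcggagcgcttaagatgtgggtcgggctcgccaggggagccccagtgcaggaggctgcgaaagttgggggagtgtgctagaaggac
Egr2: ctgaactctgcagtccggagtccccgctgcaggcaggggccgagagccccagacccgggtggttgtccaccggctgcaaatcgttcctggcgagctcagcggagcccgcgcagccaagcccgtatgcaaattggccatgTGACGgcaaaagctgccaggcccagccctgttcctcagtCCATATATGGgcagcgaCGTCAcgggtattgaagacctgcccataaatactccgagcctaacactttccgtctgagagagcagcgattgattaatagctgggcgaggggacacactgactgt
Ier3: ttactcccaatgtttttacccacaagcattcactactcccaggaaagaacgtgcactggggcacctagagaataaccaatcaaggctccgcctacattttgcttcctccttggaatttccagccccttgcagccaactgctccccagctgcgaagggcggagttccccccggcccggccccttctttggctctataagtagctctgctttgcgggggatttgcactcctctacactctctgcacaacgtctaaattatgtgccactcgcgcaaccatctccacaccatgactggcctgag

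The 3 windows differed in what they hold. The Nr4a1 window had 4 matches to TGACG, and 0.231% of all 32851 promoter windows had at least 4. It also held 1 CCGGAA match and 1 match to the EGR site GCGGGGGCG, which 2.91% of all windows hold, and no CArG box. The Egr2 window held a CArG box, found in 1.63% of all windows, and 2 TGACG matches. Both kinds occurred together in 0.244% of all windows. The patterns counted at 0.231% and 0.244% were taken from what these windows hold. The shares were not matched for CpG content, although TGACG contains a CpG. Another Egr2 start, with its window from position 67537316, had 1 CArG box and 3 CCGGAA matches, of which 2 overlap. A further Egr2 start, with its window from position 67535249 and 32 CpGs, had none of the capitalised matches. The Ier3 window had none of the capitalised matches, which says only that these letters are not in it. Alone, TGACG is common (20.8% of all windows), as is CCGGAA (14.9%), while TGANTCA was in 7.81%. The windows also differed in CpG content. Nr4a1 had 35 CpGs, a number reached by 6.95% of all windows, Egr2 had 19 and Ier3 had 10, against a median of 7.

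Nr4a1 (ENSMUSG00000023034, chromosome 15, 101253902 to 101274795, GRCm38.p6) was the most reduced of the 5 genes. In the authors' deposited table its DESeq log2 fold change was -2.49 (SE 0.37, adjusted p = 5.85e-09), which puts Maternal LT-GE tumours at 17.8% of the Control level, or 5.60-fold lower. The 95% interval from that SE ran from -3.21 to -1.76. Its mean normalised count over all libraries was 1669 in the authors' deposited table. With 4 and 3 libraries, that mean and fold correspond to about 561 normalised counts in Maternal LT-GE and 3145 in Control tumours. By DESeq adjusted p it stood at rank 63 among the 1324 listed genes. By edgeR, the authors' deposited table has the same -2.49 at a false discovery rate of 1.02e-10. In bulk tumour RNA, fewer cells that make a transcript and less transcript per cell cannot be told apart.

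The 3 EGR genes were lower by different amounts. Egr2 (ENSMUSG00000037868, chromosome 10, 67534469 to 67542188), known from myelination, hindbrain patterning and lymphocyte biology, was at -1.69 (SE 0.45, adjusted p = 0.00486) (log2) in the authors' deposited table, or 30.9% of the Control level. Egr3 (ENSMUSG00000033730, chromosome 14, 70077317 to 70082613), which acts in muscle spindles, neurons and T cells, was at -1.55 (SE 0.46, adjusted p = 0.0163) in the authors' deposited table, or 34.2% of the Control level. Egr1 (ENSMUSG00000038418, chromosome 18, 34861207 to 34864956), a widely studied sensor of growth signals, was at -0.72 (SE 0.21, adjusted p = 0.0137) in the authors' deposited table, or 60.9% of the Control level. The 95% intervals were -2.58 to -0.81 for Egr2, -2.46 to -0.64 for Egr3 and -1.13 to -0.30 for Egr1. They overlap among the 3, while that of Egr1 lies wholly above that of Nr4a1. A test between genes would need values per library.

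Ier3 (ENSMUSG00000003541, chromosome 17, 35821713 to 35822911) was at -1.10 (SE 0.31, adjusted p = 0.0091) in the authors' deposited table, which is 46.6% of the Control level. Its 95% interval was -1.71 to -0.49, and the mean and fold correspond to about 1472 normalised counts in Maternal LT-GE and 3157 in Control tumours. For Egr2 they were about 699 normalised counts in Maternal LT-GE and 2263 in Control tumours. For Egr3 they were about 123 in Maternal LT-GE and 359 in Control tumours, and for Egr1 about 9887 in Maternal LT-GE and 16240 in Control tumours. These counts are not per length, so they do not rank the 5 genes by abundance.

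All 5 genes passed the DESeq adjusted threshold of 0.05 because that is how the list was made. Over the genes tested, 18425 as worked back from the adjustment, 7.19% passed it and 3.02% passed it and were lower. Among the listed genes 42% were lower. By the edgeR columns of that table, 3 of the 5 (Nr4a1, Egr2 and Ier3) were under a false discovery rate of 0.05, where 70.5% of all listed genes stood. Egr3 (0.0526) and Egr1 (0.098) missed it in the authors' deposited table. The gene nearest the edge of the list, Egr3 with an adjusted p of 0.0163, was inside it by some way, since the list ran to 0.0499 in the authors' deposited table. Genes just outside the list were not analysed here. The spread between tumours that the authors' SE implies, as a coefficient of variation, was 19.1% for Egr1, 28.0% for Ier3, 33.5% for Nr4a1, 40.8% for Egr2 and 41.5% for Egr3, with a median of 36.8% over the listed genes. By this implied measure Egr1 had a small fold with a small spread, and Egr2 and Egr3 larger folds with a larger spread. A small fold passes the threshold only with a small SE, from which this spread comes. The pairing of fold and spread therefore follows in part from how the list was made. The spread was worked back from DESeq values and was not measured on single libraries.

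**Figure D1:**
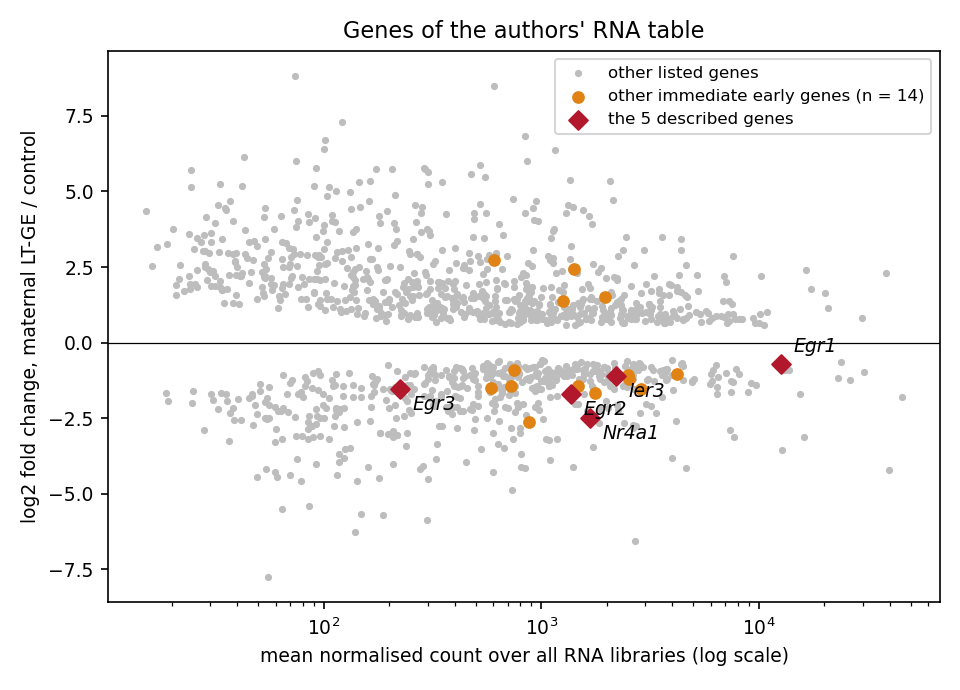
DESeq log2 fold change (Maternal LT-GE over Control, vertical axis) against mean normalised count (log scale, horizontal axis) for the genes of the authors' deposited table, 1 point a gene. Diamonds are the 5 described genes, all between -2.49 and -0.72, and orange points are 14 other immediate early genes.

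Other immediate early genes also moved, in both directions. Lists of immediate early transcription factors (34 genes) and of other immediate early genes (40 genes) had 19 of 74 in the authors' deposited table, 15 lower and 4 higher, which is 25.7% against 7.19% of all genes tested. Without the 5 described genes, 14 of 69 (20.3%) were called, 10 lower and 4 higher, with a median log2 fold change of -1.14 among them in the authors' deposited table. For all listed genes the median was 0.89 there. The lists were drawn up with earlier results of these data known and give no independent support.

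Among the transcription factors, Fos and Fosl1, which form AP-1 with JUN proteins, were lower at -1.42 (SE 0.44) and -1.45 (SE 0.42) on the log2 scale by the authors' deposited table. Myc, a driver of growth and ribosome production, was at -1.22 (SE 0.40) in the same column of the authors' deposited table. Id1 and Id3, inhibitors of helix-loop-helix factors and known targets of BMP signals, went the other way, at 1.49 (SE 0.38) and 2.42 (SE 0.55), both from the authors' deposited table. Egr4, Nr4a2, Nr4a3, Fosb, Jun, Junb, Atf3 and Ier2, which were also on the list, are not in the authors' deposited table, so no lower or higher call can be given for them.

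Of the other immediate early genes, Areg and Hbegf encode ligands of the EGF receptor, at -2.64 (SE 0.51) and -1.07 (SE 0.33), both from the authors' deposited table. Phlda1 was at -1.66 (SE 0.45), Trib1, a pseudokinase, at -1.55 (SE 0.34) and Rgs2, a brake on G protein signals, at -1.50 (SE 0.39) in the authors' deposited table. Errfi1, a feedback inhibitor of the EGF receptor, was at -1.03 (SE 0.27) and Tiparp, a target of the aryl hydrocarbon receptor, at -0.91 (SE 0.31) in the authors' deposited table. For Tiparp edgeR gave a false discovery rate of 0.0925, as the authors' deposited table shows. Gem, a small GTPase, at 2.72 (SE 0.55), and Gadd45b, a stress gene, at 1.37 (SE 0.37), were higher in the authors' deposited table.

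Among signals that reach immediate early promoters, Ep300, a histone acetyltransferase used by CREB, was at -0.94 (SE 0.27) in the authors' deposited table. Mef2c at 1.26 (SE 0.41) and Crtc1, a CREB coactivator, at 0.58 (SE 0.20, edgeR false discovery rate 0.218) were higher in the authors' deposited table.

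A list of 15 inhibitors of ERK and related kinase signalling had 5 genes called (33.3%, against 7.19% of all genes tested), of which 4 were lower, where 3.02% of all genes tested were called and lower. Dusp5 and Dusp6, phosphatases of ERK, were at -1.56 (SE 0.38) and -1.28 (SE 0.37), both from the authors' deposited table. Spred2 and Spred1, inhibitors of RAS to RAF signalling, were at -1.04 (SE 0.27) and -0.87 (SE 0.28), both from the authors' deposited table. Dusp10, which acts on p38 and JNK kinases, was higher at 1.42 (SE 0.44) in the authors' deposited table. Of 14 partners and repressors of EGR and NR4A proteins 1 was called (7.14%, close to the 7.19% of all genes tested). It was Fbxw7, a ubiquitin ligase subunit, at -0.95 (SE 0.31) in the authors' deposited table. Nab1 and Nab2, the corepressors of EGR proteins, are not in it.

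**Figure D2:**
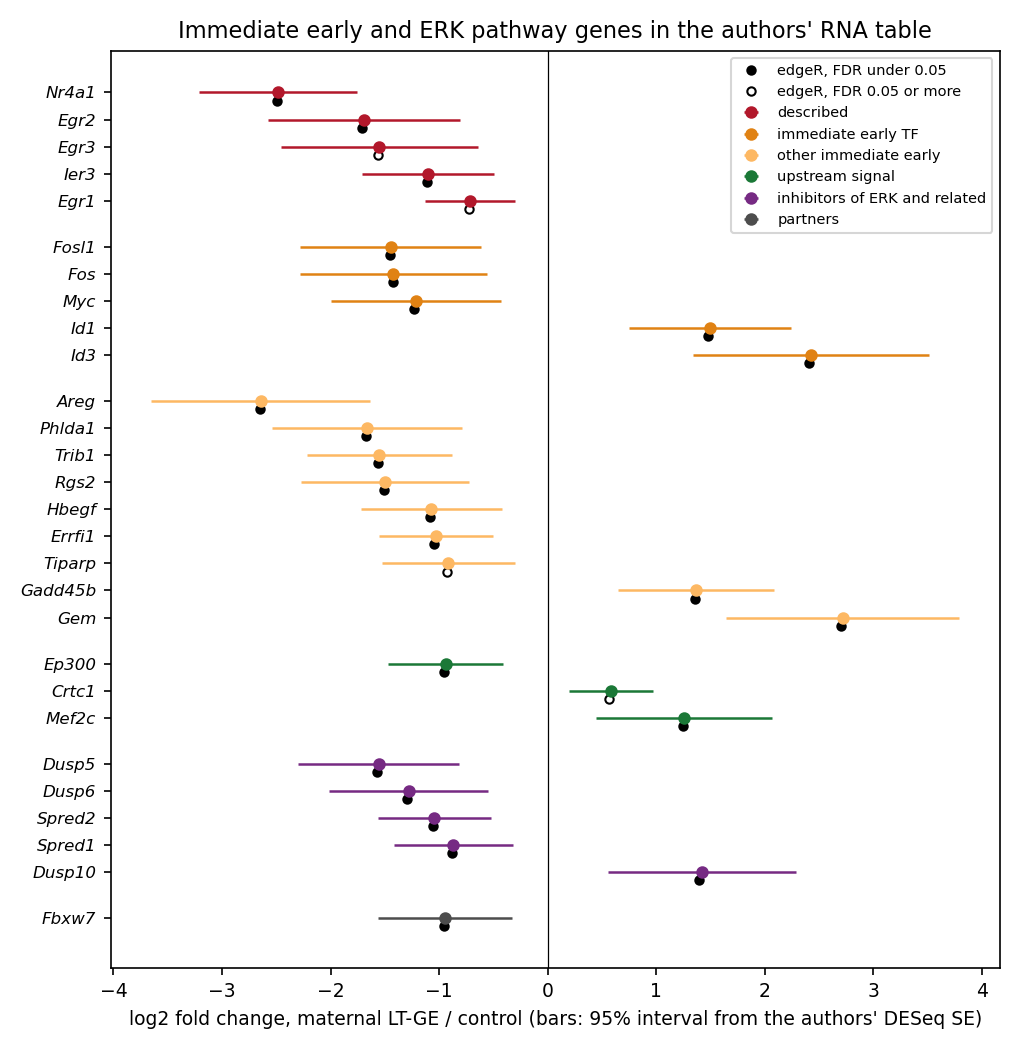
DESeq log2 fold changes (Maternal LT-GE over Control, horizontal axis) with 95% intervals for the 5 described genes and called genes of the pathway lists, 1 row a gene. Small black points are the edgeR values, open where the false discovery rate was 0.05 or more (Egr1, Egr3, Tiparp, Crtc1).

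DNA coverage was compared on the chromosomes that carry the 5 genes, as relative RRBS coverage on a log2 scale with 0 as the library's autosomal median. On chromosome 15, home of Nr4a1, it was -0.10 ± 0.15 (SD, n = 4) in Maternal LT-GE and 0.25 ± 0.22 (SD, n = 3) in Control libraries, over 153 sites. The 4 Maternal LT-GE libraries were at 0.11, -0.20, -0.14 and -0.18, and the 3 Control libraries at 0.08, 0.49 and 0.18, so that Maternal LT-GE replicate 1 reached into the Control range. On chromosome 10 (Egr2) it was -0.11 ± 0.08 (SD, n = 4) in Maternal LT-GE and 0.19 ± 0.35 (SD, n = 3) in Control libraries, with Control replicate 3 highest at 0.58. On chromosome 14 (Egr3) it was -0.13 ± 0.15 (SD, n = 4) in Maternal LT-GE and 0.20 ± 0.17 (SD, n = 3) in Control libraries. There the Maternal LT-GE libraries were at 0.09, -0.27, -0.17 and -0.16 and the Control libraries at 0.06, 0.38 and 0.15. The groups overlapped on all 3 chromosomes. Without Control replicate 3, the difference on chromosome 10 was -0.11, against -0.30 with all libraries. In exact permutation tests on the size of the difference, without regard to its sign, the p-values for chromosomes 15, 10 and 14 were 0.0857, 0.0571 and 0.0857, each 0.143 after adjustment over the 5 chromosomes. The smallest p this design allows is 0.0286.

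On the chromosomes of Egr1 and Ier3 the groups overlapped as well, with smaller differences. Chromosome 18 was at 0.02 ± 0.20 (SD, n = 4) in Maternal LT-GE and -0.07 ± 0.56 (SD, n = 3) in Control libraries (exact permutation p = 0.886). Chromosome 17 was at 0.02 ± 0.16 (SD, n = 4) in Maternal LT-GE and -0.04 ± 0.14 (SD, n = 3) in Control libraries (exact permutation p = 0.629, adjusted 0.786). Within 5 Mb of the gene, the difference of Maternal LT-GE minus Control was -0.31 for Nr4a1, -0.33 for Egr2, -0.07 for Egr3, 0.08 for Egr1 and 0.07 for Ier3. Around Egr2 all 4 Maternal LT-GE libraries, at -0.27 to -0.07 over 20 sites, lay below the 3 Control libraries at 0.02, 0.05 and 0.51. Control replicate 3 was the highest of these, and over the whole of chromosome 10 the groups overlapped. The window was not tested, and how often windows of this size separate the groups was not counted. Around the other 4 genes the groups overlapped. The part of DNA coverage in the RNA folds was not tested.

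**Figure D3:**
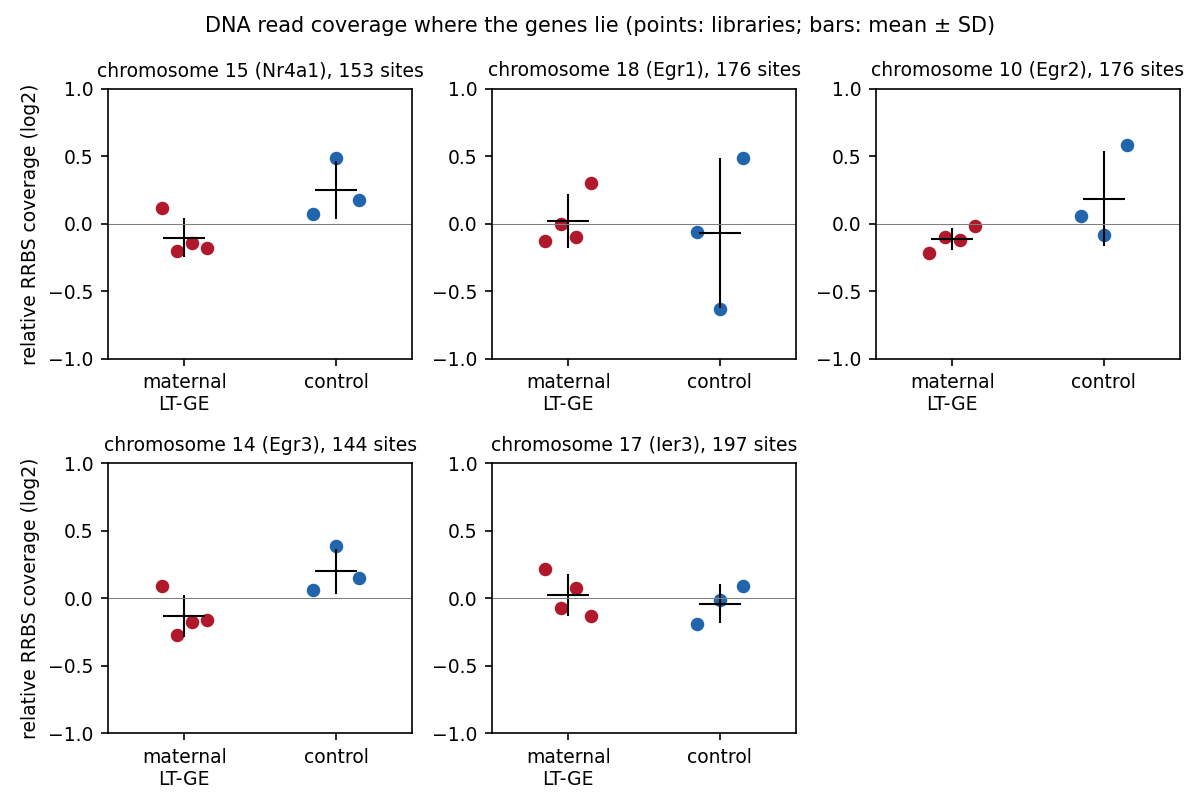
Relative RRBS coverage (log2, vertical axis) of each library at listed sites of the chromosomes that carry the 5 genes, Maternal LT-GE left and Control right. Points are libraries and bars are mean ± SD. The groups overlap on all 5 chromosomes.

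Called genes around the 5 loci did not share one direction. Besides Nr4a1, chromosome 15 had 66 lower and 19 higher genes in the authors' deposited table, and within 5 Mb of Nr4a1 13 were lower and 6 higher. The called genes next to Nr4a1 were higher on both sides. These are Slc4a8, a bicarbonate transporter 430 kb before it at 2.97 (SE 0.50), and the keratin gene Krt90 278 kb after it at 4.01 (SE 1.11), in the authors' deposited table. Most called genes within 5 Mb were lower, as Nr4a1 was, and the nearest called gene on each side was higher. Genes in between that were not called were not analysed here.

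Egr2 had no called neighbour within 5 Mb, and the rest of chromosome 10 had 37 lower and 17 higher genes in the authors' deposited table. On either side of it the closest called genes were Hk1, a hexokinase gene, 5150 kb before at -1.19 (SE 0.36), and Gnaz 7420 kb after at 2.18 (SE 0.54), in the authors' deposited table. Egr3 had 4 lower and 3 higher called genes within 5 Mb. Pdlim2, 80.0 kb after it, was at -1.18 (SE 0.33), and Kctd9, 2340 kb before, at -0.72 (SE 0.25) in the authors' deposited table.

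Ier3 ends 0.409 kb before Flot1, which encodes the membrane protein flotillin-1 and was at -0.88 (SE 0.26) in the authors' deposited table. Whether reads were counted by strand is not given in the sources used here, so reads that run past the end of either gene could not be told apart. On its other side Cdsn, a cornified-envelope adhesion gene 265 kb away, was at 3.57 (SE 0.68) in the authors' deposited table. Chromosome 17 otherwise had 16 lower and 28 higher genes there. Next to Egr1, Reep2 at 13.7 kb was higher at 1.66 (SE 0.56), and Nrg2, a ligand of ERBB receptors 1150 kb away, was at -3.05 (SE 0.85) in the authors' deposited table. Hbegf, itself an immediate early gene and lower as given above, lies 1.64 Mb after Egr1. The rest of chromosome 18 had 9 lower and 17 higher genes there, so Ier3 and Egr1 were lower on chromosomes where most called genes were higher.

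**Figure D4:**
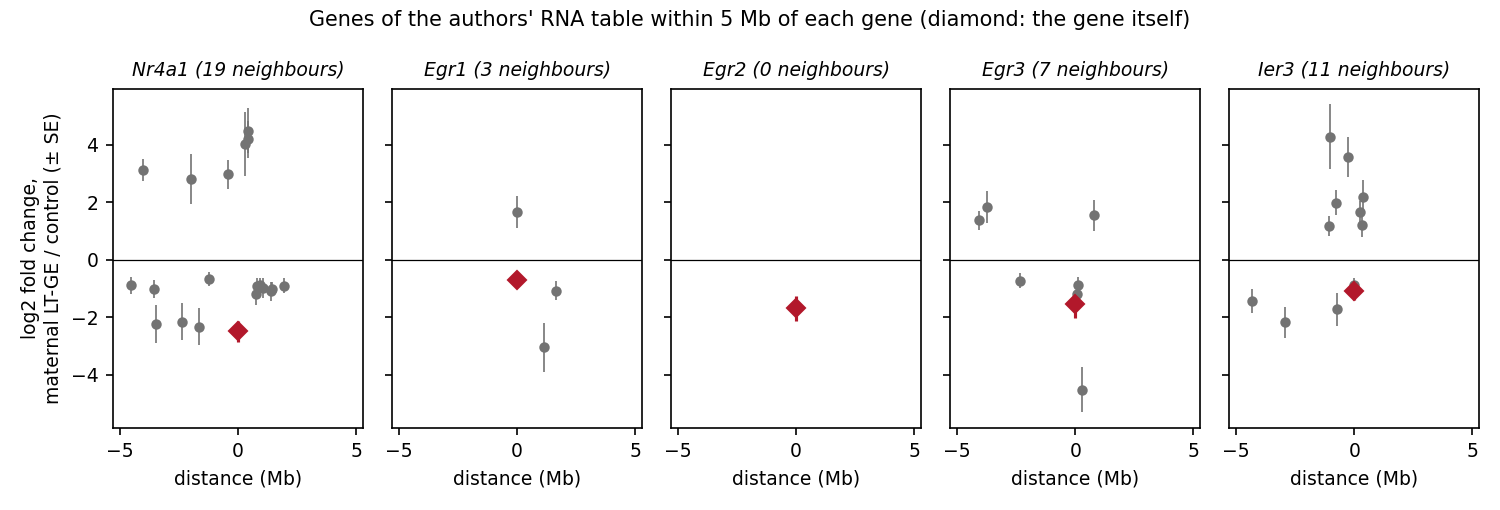
DESeq log2 fold changes (Maternal LT-GE over Control, ± SE, vertical axis) of genes in the authors' deposited table within 5 Mb of each described gene (distance in Mb, horizontal axis); the diamond is the described gene. Nr4a1 has 19 called neighbours, Ier3 11, Egr3 7, Egr1 3 and Egr2 0.

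Methylation differed inside Nr4a1 itself. The authors' deposited table lists a region from an intron into an exon of the gene (chromosome 15, 101269966 to 101270418, mm10, 453 bases, 8 CpGs). Mean methylation there was 87.8% in Maternal LT-GE and 24.5% in Control tumours by the authors' deposited table, a difference of 63.4 percentage points. The region starts 3120 bases and ends 3572 bases after the RefSeq start whose promoter is shown above, so it lies in the gene body, and the authors' deposited table gives it no CpG island. By size it was number 10 of the 139 regions and number 2 of the 47 higher ones. Higher regions were 33.8% of all listed regions. On chromosome 15 4 of 6 regions were higher. The table gives group means, so the spread between tumours is not known for this region, and no listed CpG site lies inside it (0 sites). The closest is 303 kb away.

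The other region bears the name of Egr2 only as a flanking gene. It covers 50 bases with 4 CpGs on chromosome 10 (67297466 to 67297515), 240 kb from Egr2 and 12.2 kb from Nrbf2 by the authors' annotation. No protein-coding RefSeq gene of GRCm38.p6 lies between it and Egr2 (0 genes). Its mean methylation was 24.0% in Maternal LT-GE and 74.6% in Control tumours in the authors' deposited table, a difference of -50.6 points. It was number 46 by size. The regions in Nr4a1 and near Egr2 thus differed in opposite directions, while RNA of both genes was lower.

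Regions inside any gene of the RNA table were looked at together, as a description without a test, to place Nr4a1 among them. There were 25 such genes with 1 region each. In 17 of them the region and the RNA went opposite ways, and in 8 the same way. Nr4a1 had the largest absolute methylation difference of the 25 and the most negative fold. Aqp5, a water channel gene on the same chromosome, came close to it, with 91.8% in Maternal LT-GE and 34.7% in Control tumours and a log2 fold change of -2.33 in the authors' deposited table. Kcnn4, a potassium channel gene on chromosome 7, had 84.3% in Maternal LT-GE and 38.8% in Control tumours with -2.04, in the authors' deposited table. Among the 8 that went the same way were C2cd4c on chromosome 10 and M1ap on chromosome 6. C2cd4c had 74.9% in Maternal LT-GE and 13.6% in Control tumours with 2.14, in the authors' deposited table. M1ap had 4.64% in Maternal LT-GE and 63.2% in Control tumours with -2.43, in the authors' deposited table. Regions were listed for their difference, and the direction of the RNA fold rests on the reading given above.

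**Figure D5:**
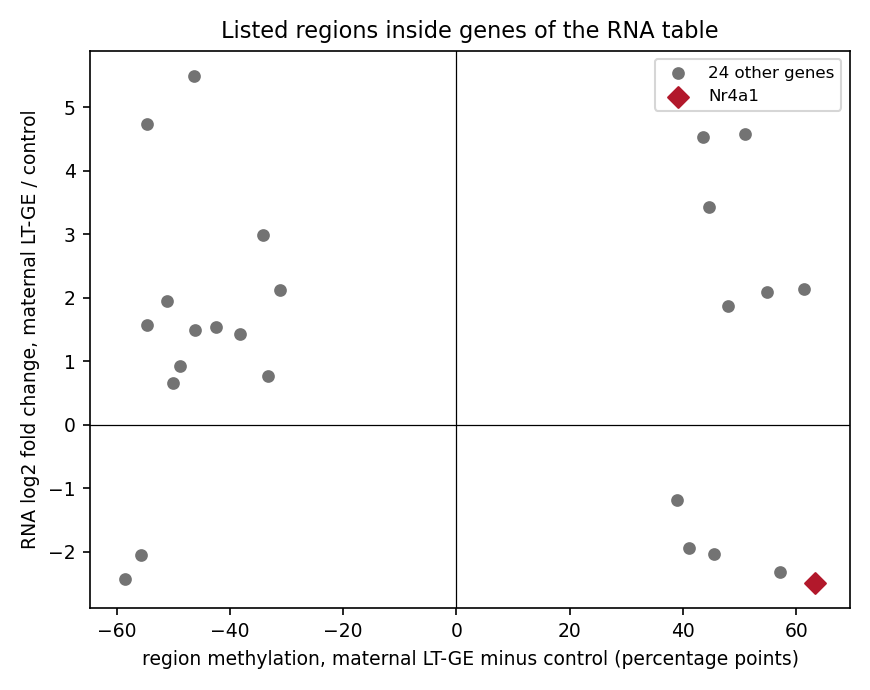
Difference in region methylation (Maternal LT-GE minus Control, percentage points, horizontal axis) against RNA log2 fold change (Maternal LT-GE over Control, vertical axis) for 25 genes that hold a listed region and are in the RNA table, 1 point a gene. Nr4a1 is the red diamond at 63.4 points and -2.49, the lower right end.

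No listed CpG site was annotated to or beside any of the 5 genes. All listed sites were covered by 10 or more reads in each of the 7 libraries, and sites outside the list were not analysed here. Within 100 kb of a gene there was 1 site, in an intron of Pebp4, 99.2 kb from Egr3 (chromosome 14, 69978167). Its level was 11.1%, 0%, 60% and 52.6% in Maternal LT-GE replicates 1 to 4, and 50%, 53.8% and 83.9% in Control replicates 1 to 3. The groups overlapped, with 30.9% ± 29.8 (SD, n = 4) in Maternal LT-GE and 62.6% ± 18.5 (SD, n = 3) in Control tumours at 16 to 40 reads (exact permutation p = 0.257).

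The nearest listed site on each side of each gene, 10 in all and 99.2 to 1890 kb away, was chosen after the site table was seen. Levels were lower in Maternal LT-GE at 6 and higher at 4. At 3 of the 10 the quasi-binomial p was under 0.05, where 31.6% of all listed sites stood, and at 4 the groups did not overlap, as at 27.8% of all listed sites. None passed adjustment over the 4327 sites (adjusted p from 0.13 to 0.267). The lowest p and the largest difference of the 10 were at a site between Reep5 and Pkd2l2, 461 kb before Egr1 (chromosome 18, 34400281), where levels were higher in Maternal LT-GE tumours. They were 75%, 58.3%, 100% and 63.6% in Maternal LT-GE replicates 1 to 4, and 7.84%, 13.3% and 47.4% in Control replicates 1 to 3, at 11 to 51 reads. All Maternal LT-GE tumours were thus above all Control tumours, and the adjusted quasi-binomial p was 0.13. On the sides of Egr2 levels were lower. The site 214 kb past Egr2 (chromosome 10, 67756682) had 0%, 0%, 18.2% and 0% in Maternal LT-GE replicates 1 to 4. It had 50%, 31.4% and 47.1% in Control replicates 1 to 3, at 14 to 55 reads. All Maternal LT-GE tumours thus lay below all Control tumours, with an adjusted quasi-binomial p of 0.134. The site 504 kb before Egr2, in the noncoding Gm31763 (chromosome 10, 67030004), was at 29.5% ± 14.5 (SD, n = 4) in Maternal LT-GE and 79.7% ± 22.3 (SD, n = 3) in Control tumours, again without overlap. Its adjusted quasi-binomial p was also 0.134. The flanking region and the nearest listed site on each side of Egr2 were all lower in Maternal LT-GE tumours. Of all 139 listed regions 92 were lower. The share of lower sites among all listed sites is not given here. The flanking region and the sites beside Egr2 lie 214 kb or more from it and were listed for a difference, so they are given as values only.

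Genes of the pathway lists held 13 listed sites in 8 of 135 genes, 9 lower and 4 higher in Maternal LT-GE tumours. Of the 13, 4 had a quasi-binomial p under 0.05, where 31.6% of all listed sites stood, and 4 had groups that did not overlap, against 27.8% of all listed sites, so both counts lie near the share over the whole table. The sites below are given as values only. None passed the adjustment (adjusted p from 0.13 to 0.379). An intron site of Rxrg, a retinoid X receptor gene (chromosome 1, 167598900), was at 7.53% ± 7.8 (SD, n = 4) in Maternal LT-GE and 36.0% ± 10.9 (SD, n = 3) in Control tumours, without overlap. Proteins of the retinoid X receptor family pair with Nr4a1 on DNA. An intron site of Homer1, whose short form is an immediate early product of neurons (chromosome 13, 93399688), was at 86.8% ± 15.6 (SD, n = 4) in Maternal LT-GE and 44.0% ± 21 (SD, n = 3) in Control tumours, without overlap. Csrnp1, an immediate early transcription factor induced by AXIN1, had 3 exon sites with differences of -13.7, -35.0 and -36.4 points and overlap at each. None of the 8 genes is in the RNA table. The list also held a region in Rps6ka1, an ERK-activated kinase, with 87.4% in Maternal LT-GE and 34.2% in Control tumours in the authors' deposited table.

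Depth limited these values. Maternal LT-GE libraries held 113967 to 210974 reads at the listed sites with a median coverage of 18 to 37, and Control libraries 203672 to 226194 reads with a median of 35 to 41. RNA depth per library was not used here. Markers of cell types that a mammary tumour can hold were looked up in the RNA table, which holds only called genes, so that the tissue label could not be checked in full. For luminal epithelium 3 of 6 were called, with Krt18 at -1.18, Elf5 at -2.68 and Pgr at 2.96 in the authors' deposited table, and for basal epithelium 2 of 4, with Krt5 at 4.49 and Trp63 at 4.73 in the authors' deposited table. Called singly were Flt1 of endothelium at 1.56, Lcn2 of neutrophils at -1.25 and Trbc2 of T cells at 4.08 in the authors' deposited table. Igha of plasma cells at 5.75 and Tnni2 of muscle at 3.74 were also called singly there. No fibroblast, macrophage or adipocyte marker was called. The part of these cell types in the levels of the 5 genes was not tested.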

How the data were processed

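RNA and RRBS libraries of 4 Maternal LT-GE and 3 Control tumours were grouped by their titles. The submitters' processing notes name Bismark, Trim Galore, STAR, HTSeq, FastQC, DESeq, R 3.6.1 and the builds GRCm38 and mm10; the role of each is not given in the sources used here. Per the file headers, each gene has the authors' mean over libraries (a signal in normalised counts), log2 fold changes and a test statistic (a score) from DESeq and edgeR, and p-values with their adjustment. For RRBS the authors deposited read counts, percent methylation, p-values and q-values per CpG, the methylation difference in points as a signed score, and regions with mean methylation as a fraction, printed as percent. Differences are Maternal LT-GE minus Control.

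Repeated lines were used once (1333 lines, 1324 genes). The numbers of genes tested, 18425 by DESeq and 14836 by edgeR, are the adjusted p times rank over p, as 89 and 85 of the first 100 ranks gave it. Group means were worked back from the mean count and fold, and spread from the SE under a negative binomial variance. Symbols and positions came from RefSeq GRCm38.p6, where 1269 genes were placed. At each of 4327 sites a quasi-binomial model (dispersion floor of 1, F test) compared libraries, with Benjamini-Hochberg adjustment over all sites. The model was first run on simulated reads, at sites not selected for a difference. The authors had already selected the 4327 sites for this contrast, a setting that the simulation does not cover. Relative coverage is log2 coverage less the site mean and the library's autosomal median. Named genes were the 5 genes, all called genes of the pathway lists, called neighbours, and genes of listed sites near them; the rule on similar sites named none, as no site belonged to a described gene. Regions inside called genes, Hbegf's place beside Egr1 and the described sites of pathway genes were chosen after their values were seen. The 5 genes and all lists were chosen with earlier results of these data known. A few results that the rule on named genes covers are not reported here. Alternatives are given in the closing section. Python 3.11.15, numpy 2.4.6, pandas 2.3.3 and scipy 1.17.1 were used.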

Additional observations from a re-analysis of the deposited data

Results flagged for a closer look

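In 4 of 33 groups of 4 Maternal LT-GE libraries examined, 1 library stood far from the other 3. The rate of about 1 in 20 that chance gives does not hold where the other 3 share 0% or 100%. The count is therefore not set against it. Within 5 Mb of Nr4a1, replicate 1 stood at 0.16 in relative RRBS coverage (log2), and the others lay between -0.11 and -0.08. The other cases are replicate 3 at 3 sites, where the remaining libraries of the group shared a single value. It was at 42.9% in an intron of Scn8a 301 kb before Nr4a1 and at 42.9% at a site 1890 kb past Egr3, where the others were at 100%. At the site 214 kb past Egr2 it was at 18.2%, where the others were at 0%.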

How the results depend on the processing

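The 5 genes were lower by both tools, with Egr1 at -0.73 and Egr3 at -1.56 (log2) past DESeq's threshold only. Requiring edgeR as well left 3 of the 5, and a DESeq adjusted p under 0.01 also 3. At that stricter threshold 8 lower genes remained in the immediate early lists (15 at 0.05), 5 without the described genes (10 at 0.05) and 2 among the inhibitors of ERK and related signalling (4 at 0.05). Counting sites within 100 kb gave 1 in place of 0. Leaving out each library, the coverage difference lay between -0.45 and -0.24 on chromosome 15, -0.44 and -0.11 on chromosome 10, -0.42 and -0.24 on chromosome 14, and on both sides of 0 on chromosomes 18 (-0.17 to 0.38) and 17 (-0.01 to 0.13). A Csrnp1 site (119973613) ranged from -29.3 to 3.01 points, and it was 3.01 without Control replicate 2. Of the sites nearest the genes, those with an unadjusted p under 0.05 lost it as follows: 34400281 without Maternal LT-GE replicate 1 or Control replicate 1 (highest p 0.0727), 67030004 without Maternal LT-GE replicate 2 or 3 or Control replicate 1 (0.0812), and 67756682 without Control replicate 1 or 3 (0.0711). Deviations of same-numbered libraries were almost uncorrelated (r from -0.03 to 0.02), which does not settle whether the samples were paired. The fit with a replicate block left out Maternal LT-GE replicate 4, which has no Control library of its number. What it changed therefore holds the loss of a library as well as the block. In that fit 998 of 4327 sites had p under 0.05, against 1369 with all libraries and no block. It was 2 against 3 of the 10 nearest sites and 0 against 4 of the 13 pathway sites. In the block fit both sites beside Egr2 lost an unadjusted p under 0.05 (67030004 at -56.2 points, p 0.0795, and 67756682 at -36.7 points, p 0.0744). The Krt75 site 299 kb past Nr4a1 (101573861) came under it at -29.3 points (p 0.0485). Without Maternal LT-GE replicate 4 but with no block, the quasi-binomial p-values of these sites, in the same order, were 0.0401, 0.0458 and 0.0781. At 20 reads or more in every library 2 of the 23 named sites could be kept. Relative coverage centred on all chromosomes moved each of the 5 differences by less than the spread between libraries.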
